A study of Mus musculus with 22 samples.

Results

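Whole pancreatic tumors that lacked microRNA-21 were compared with tumors that carried it, over all genes with enough reads to test. The tumors were chosen by the genotype in their labels. They are 12 of the 22 libraries of the study, and the remaining 10 are cancer cell lines, 5 KO and 5 WT. The 8 KO tumors are labelled miR21 KO and the 4 WT tumors WT. All came from untreated Bl6 mice of a K-Ras-driven model of pancreatic cancer (titles beginning KPC), were taken when the animals showed symptoms, and were snap frozen, and ages, sexes and litters are not given. The labels mention recombined K-Ras and p53 alleles only for the lines and do not say which cells lost microRNA-21. Each tumor is a mixture of cancer cells, stroma, blood cells and remaining pancreas, so fewer cells of a type and less RNA per cell cannot be told apart in any value below.

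A microRNA is a short RNA that guides a silencing complex to messenger RNAs carrying a match to its seed, bases 2 to 8 from its 5′ end. Such messages are translated less and decay sooner, and the match that works best is an 8mer, in which an A follows the seed match. MicroRNA-21 is abundant in many carcinomas, pancreatic cancer among them, and in activated fibroblasts. Its studied targets restrain growth signals, translation and matrix breakdown. The comparison asks which messages of a tumor differ when it is missing.

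The KO tumors had library totals of 24547650 to 30106745 counts, and the WT tumors 27332257 to 29987227. Levels are CPM, counts scaled to the library total and its TMM factor. In a principal component analysis of the 500 most variable genes the genotypes were mixed along the first component (36.7% of variance). On the second (22.7%), 7 of 8 KO tumors and 1 of 4 WT tumors had positive scores. KO tumors 1, 3 and 6 had 1038 to 1688 CPM of Xist with a summed Y-linked level of at most 0.0645 CPM. The other KO tumors had at least 111 and all WT tumors at least 85.4 CPM of summed Y-linked RNA, so female-type libraries occurred in KO tumors alone. WT tumor 3 stood apart in skeletal muscle genes, with a summed level of 2520 CPM. KO tumors 4 and 8 and WT tumor 4 had the highest summed acinar levels, at 3075, 1318 and 705 CPM. KO tumors 5 and 3 came next, at 651 and 635 CPM, close to WT tumor 4. The 3 highest, picked by these levels, are the acinar-rich tumors left out in some fits below. Keratins and other duct cell genes were read in every tumor, and no marker of that list was at 0 in all tumors.

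The microRNA gene itself, Mir21a (chromosome 11, 86584067 to 86584158, build mm10, inside Vmp1), had 0 counts in all 12 tumors. A count of 0 allows up to 0.122 CPM in the smallest library (3 counts, counting error only). Messenger RNA libraries do not capture a mature microRNA, so these counts do not check the genotype. Its host Vmp1, an autophagy protein of the endoplasmic reticulum, averaged 585 ± 113 CPM in KO tumors and 468 ± 105 in WT tumors (SD, n = 8 and 4), and the log2 fold change, KO over WT throughout, was 0.32 ± 0.19 (SE, adjusted p = 0.403).

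The mature microRNA and the sites of 7 genes described below are shown because the comparison turns on this pairing. Taf7, also described below with an 8mer, is not among the 7. The microRNA (RefSeq, GRCm38.p6, chr11:86584120-86584141, minus strand) has its seed in capitals, and each 30-base window of a 3′ UTR (GENCODE vM21 on mm10) has its 8mer in capitals. The coordinates are those of the 8mer.
mmu-miR-21a-5p: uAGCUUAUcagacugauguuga
Acat1, chr9:53582461-53582468, minus strand: ttatattcagcATAAGCTAtttcatttttt
Cdip1, chr16:4768267-4768274, minus strand: caattcagaagATAAGCTAgagaggctctt
Tprgl, chr4:154157824-154157831, minus strand: actctcataacATAAGCTAgccccttccgg
Spg20, chr3:55136134-55136141, plus strand: attttcagcagATAAGCTAaacaaaactgt
Slc35a5, chr16:45140957-45140964, minus strand: aaatatgaattATAAGCTAacatgaagttt
Reck, chr4:43944407-43944414, plus strand: tacagtttgaaATAAGCTAttaatgtaata
Pdcd4, chr19:53929432-53929439, plus strand: tgggtgttctgATAAGCTActttctaagtg
The 8mer of Acat1 starts 77 bases into a 3′ UTR of 2023 bases, and that of Reck 1042 bases into one of 1441.

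Of 18125 genes tested with edgeR's quasi-likelihood test, 2 rose in KO tumors at an adjusted p under 0.05 (0.011%) and none fell (0.0%). By an unadjusted p under 0.05, the higher genes numbered 1512 (8.34%) and the lower genes 1521 (8.39%). In 207 genes every KO tumor lay above every WT tumor (1.14%), and in 167 every KO tumor lay below (0.921%). The median log2 fold change of all genes was 0.01. DESeq2 called 550 higher and 333 lower genes. Leaving out KO tumor 2 gave 70 higher and 12 lower calls by edgeR, WT tumor 2 gave 19 and 38, KO tumor 8 gave 4 and 0, KO tumor 3 gave 2 and 1, and WT tumor 4 gave 2 and 4.

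Acat1 and Taf7 rose. Acat1, a mitochondrial thiolase of ketone body and isoleucine breakdown, had 87.8, 111.8 and 121.0 CPM as its lowest, median and highest KO tumor. The WT tumors had 47.8, 43.0, 40.5 and 34.0 CPM. Every KO tumor was well above every WT tumor, and the spread within each genotype was narrow. Its log2 fold change was 1.40 ± 0.13 (SE, adjusted p = 0.00142).

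Taf7 is a subunit of TFIID, the factor that places RNA polymerase II at promoters. KO tumors had 17.1, 19.7 and 22.4 CPM as lowest, median and highest, and WT tumors 6.87, 8.87, 6.94 and 7.83 CPM. The groups again did not overlap. Its log2 fold change was 1.38 ± 0.15 (adjusted p = 0.00380). Without the 3 KO tumors of female type, the log2 fold changes were 1.39 for Acat1 (adjusted p = 0.0816) and 1.42 for Taf7 (adjusted p = 0.110), so the calls ended at nearly the same size. Without the 3 tumors of highest acinar level they were 1.28 (adjusted p = 0.0877) and 1.39 (adjusted p = 0.153).

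Ranked by p among genes with a mean of at least 1 CPM, the first 5 higher genes all carried an 8mer for microRNA-21 in the longest annotated 3′ UTR. They were Acat1, Taf7, Cdip1, Tprgl and Spg20. Among the first 100 higher genes 11 carried an 8mer, against 0 of the first 100 lower genes. Of the genes with a searched UTR, 345 of 14860 carried one.

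Cdip1, a p53-induced protein that promotes cell death, had 66.3, 77.3 and 86.5 CPM as its lowest, median and highest KO tumor, against 52.3, 41.8, 43.3 and 43.8 in WT tumors. The groups did not overlap, but the adjusted p was 0.0572 (log2 fold change 0.76). Its locus overlaps Hmox2 on the opposite strand, which had 65.6% as many counts. The strand setting of the counting is not given in the sources used here, so reads of such pairs may be shared.

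Tprgl, a protein of synaptic vesicles, had 96.4, 110.0 and 136 CPM in KO tumors against 57.1, 73.6, 49.4 and 62.7 in WT tumors (log2 fold change 0.88, adjusted p = 0.0685). It overlaps Wrap73, with 12.4% as many counts. Spg20 (spartin), which acts in endosome traffic and lipid droplet turnover, had 67.9, 96.0 and 109 CPM in KO tumors. Its WT tumors had 44.8, 49.7, 55.3 and 54.4 CPM (log2 fold change 0.84, adjusted p = 0.0685). Slc35a5, of the nucleotide sugar transporter family, had 35.2 to 48.4 CPM in KO tumors and 15.9 to 29.6 CPM in WT tumors (log2 fold change 0.85, adjusted p = 0.115). In these 3 genes every KO tumor lay above every WT tumor, as for Cdip1, and none passed the threshold.

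**Figure D1:**
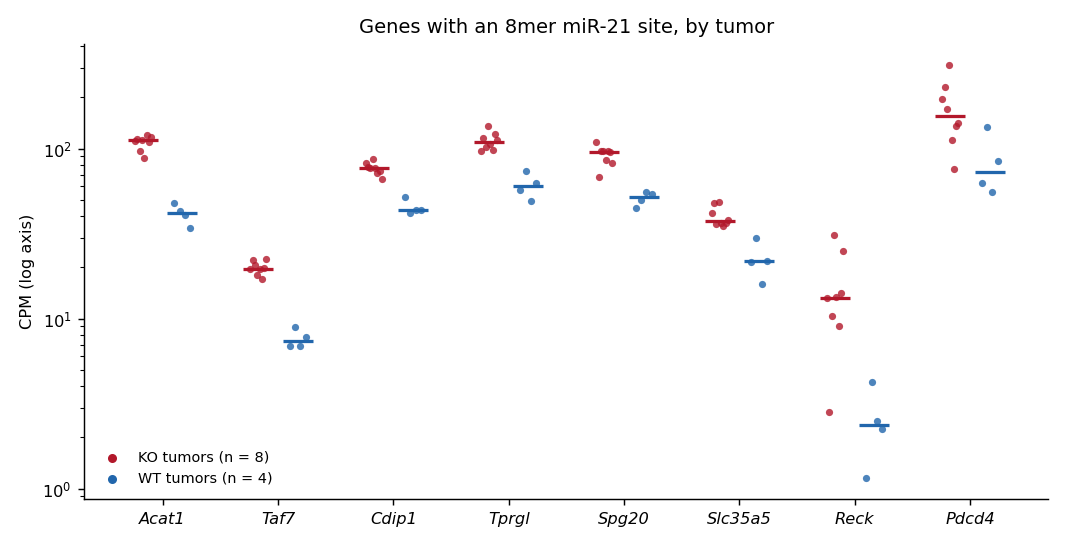
CPM (log axis) of 8 genes with an 8mer microRNA-21 site in each tumor, with KO tumors to the left and WT tumors to the right of each gene; bars are medians (n = 8 and 4). The groups are apart for Acat1, Taf7, Cdip1, Tprgl, Spg20 and Slc35a5, and overlap for Reck and Pdcd4.

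Reck and Pdcd4 are published targets with more spread. Reck, a membrane-anchored inhibitor of matrix metalloproteinases, had 2.83, 13.3 and 31.0 CPM as its lowest, median and highest KO tumor. WT tumors had 1.15, 4.26, 2.51 and 2.24 CPM. A single KO tumor, number 2, fell within the WT range. The log2 fold change was 2.55 ± 0.58 (adjusted p = 0.123).

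KO tumor 2 was also the tumor with the lowest summed level of fibroblast genes, and the part of that in its Reck level was not tested. Pdcd4, which holds back the translation helicase eIF4A, had 75.5, 156 and 312 CPM in KO tumors, against 62.6, 135, 55.8 and 84.1 CPM in WT tumors. Here the groups overlapped over much of their range (log2 fold change 1.03 ± 0.36, adjusted p = 0.201). Ski, a repressor of SMAD proteins, did not overlap, with 177 to 255 CPM in KO tumors and 125 to 169 CPM in WT tumors (log2 fold change 0.47, adjusted p = 0.145).

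Over the 33 tested of 35 genes published as microRNA-21 targets, the median log2 fold change was 0.28, or 0.14 without KO tumor 8 and 0.15 without WT tumor 3. At an unadjusted p under 0.05, 10 were higher (30.3%, against 8.34% of all genes) and 2 lower (6.06%, against 8.39%). Of the 33, 1 passed the adjusted threshold, Acat1. Like the gene lists below, this list was chosen with earlier results of these data known, so its shares are no independent test. Leaving out WT tumor 1 left 4 higher, and leaving out WT tumor 3 or 4 left 6. Without the 3 female-type tumors 6 were higher, and without the 3 acinar-rich tumors 5, with a median of 0.18. Timp3, another inhibitor of matrix proteases, averaged 519 ± 171 CPM in KO tumors and 291 ± 122 in WT tumors (log2 fold change 0.83, adjusted p = 0.221). Spry1, a brake on receptor tyrosine kinase signalling, had a log2 fold change of 0.68, and its relative Spry2 had -0.09 (adjusted p = 0.231 and 0.909). Spry2 was at 121 CPM in KO tumor 6 and 113 CPM in WT tumor 1, with all other tumors between 45.4 and 56.0.

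Genes were then grouped by the best site in the longest 3′ UTR. A 7mer-m8 matches bases 2 to 8, a 7mer-A1 matches bases 2 to 7 followed by an A, and a 6mer matches bases 2 to 7. The median log2 fold change was 0.23 for 345 genes with an 8mer and 0.09 for 816 with a 7mer-m8. It was 0.06 for 669 with a 7mer-A1, 0.02 for 2056 with a 6mer and -0.02 for 10974 with no site. The order of the medians follows the known order of site strength. At an unadjusted p under 0.05, 73 8mer genes were higher (21%) and 11 lower (3.19%), against 8.34% and 8.39% of all genes. Among genes with no site, 7.79% were higher and 10.1% lower. Of the 8mer genes 71.6% had a positive log2 fold change, against 51.0% of all genes.

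In 18 of the 345 8mer genes every KO tumor lay above every WT tumor (5.22%, against 1.14% of all genes). In 0 every KO tumor lay below (0.0%, against 0.921% of all genes). Beyond those already named, these 18 include Dlgap1, Klhl15, Tipin and Braf. Dlgap1, a scaffold of the synapse, averaged 10.3 ± 2.29 CPM in KO tumors and 4.52 ± 1.33 in WT tumors (log2 fold change 1.18, adjusted p = 0.121). Klhl15, an adaptor of a ubiquitin ligase, averaged 15 ± 2.35 CPM in KO tumors and 8.78 ± 2.06 in WT tumors (log2 fold change 0.77, adjusted p = 0.139). Tipin and Braf were picked out after their values were seen. Tipin, which steadies replication forks, averaged 26.5 CPM in KO tumors and 17.7 CPM in WT tumors. Braf, a kinase directly below RAS, averaged 51.1 CPM in KO tumors and 39.2 CPM in WT tumors, with adjusted p = 0.187.

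**Figure D2:**
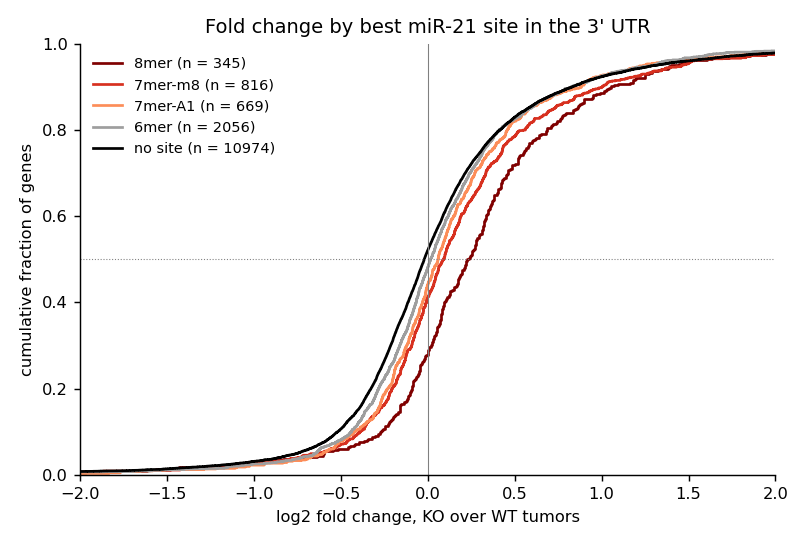
Cumulative fraction of genes against log2 fold change, KO over WT tumors, by best microRNA-21 site in the 3′ UTR; the x axis is drawn between log2 fold changes of -2 and 2. The 8mer curve (345 genes, median 0.23) lies to the right of the curve of genes with no site (10974 genes, median -0.02), with the 7mer and 6mer curves in between.

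The same shift was seen tumor by tumor. For each tumor, the median log2 deviation of site genes from the midpoint of the 2 group means was taken, minus that of genes with no site. For 8mer genes this was 0.0762 to 0.189 in the 8 KO tumors and -0.221 to -0.0356 in the 4 WT tumors, with no overlap. KO tumor 2 was the highest and KO tumors 8 and 3 the lowest of their group. WT tumor 3 was the lowest and WT tumor 2, at -0.0356, the nearest to the KO tumors. For 7mer-m8 genes the KO tumors lay between 0.0110 and 0.132 and the WT tumors between -0.102 and -0.00519, again apart. For 7mer-A1 and 6mer genes the genotypes overlapped.

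**Figure D3:**
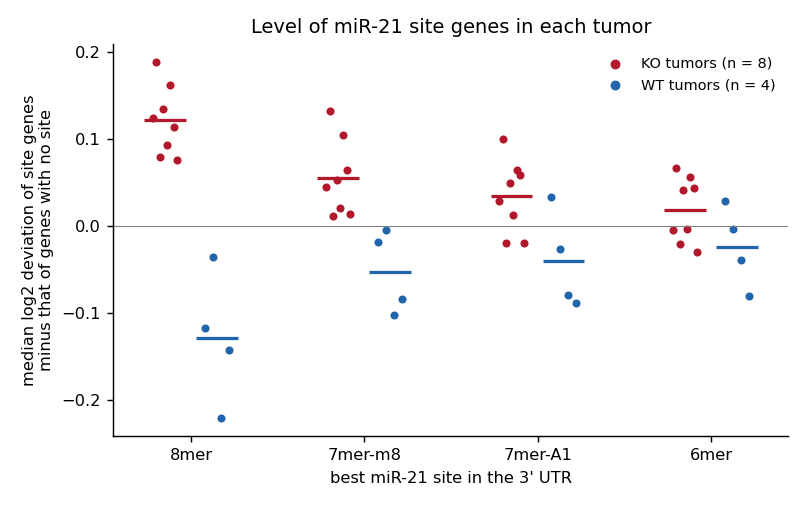
Median log2 deviation of microRNA-21 site genes from the midpoint of the 2 group means, minus that of genes with no site, for each tumor and site type; points are tumors, KO to the left of WT, and bars are group means. All 8 KO tumors are above all 4 WT tumors for 8mer and 7mer-m8 genes.

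The difference between the 8mer and no-site medians was 0.248. It lay between 0.230 and 0.342 when each tumor was left out in turn, and was 0.306 without the 3 female-type tumors. The seeds of other microRNAs searched in the same way gave smaller differences. For the partner strand miR-21a-3p it was 0.0399, for miR-200b-3p 0.0442, for miR-34a-5p 0.0427, for miR-29a-3p 0.0379 and for let-7a-5p 0.00515. The largest of the 9 others was that of miR-200b-3p.

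The size of the 8mer shift varied with expression. Among genes with a mean of at least 50 CPM, the median log2 fold change was 0.18 for 138 8mer genes and -0.11 for 3481 genes with no site. Between 5 and 50 CPM it was 0.25 for 143 8mer genes and -0.01 for 5138 genes with no site. Under 5 CPM both medians were positive, at 0.37 for 64 8mer genes and 0.29 for 2355 genes with no site, and the share higher at an unadjusted p under 0.05 was smaller for the 8mer genes (9.38%) than for those with no site (13%). Between 5 and 50 CPM it was 25.2% of 8mer genes and 8.06% of genes with no site. From 50 CPM it was 22.5% of 8mer genes and 3.85% of genes with no site. The share lower among genes with no site was 4.46% under 5 CPM, 9.17% between 5 and 50 CPM and 15.3% from 50 CPM. For 8mer genes it was 1.56%, 2.10% and 5.07%. In UTRs of 1500 bases or more, where most 8mers lie, the medians were 0.23 for 281 8mer genes and 0.01 for 3131 genes with no site. In UTRs of 500 to 1500 bases they were 0.18 for 52 8mer genes and -0.04 for 4248 genes with no site.

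The 73 8mer genes that were higher and the remaining 272 were compared in the surroundings of the site. The median share of A and U within 30 bases on each side was 63.3% for the 73 and 61.7% for the 272. The median distance to the nearest UTR end was 408 bases for the 73 and 628 bases for the 272. A second 8mer or 7mer-m8 site was present in 20.5% of the 73 and 14.3% of the 272. Genes with 2 or more such sites had a median log2 fold change of 0.21 (106 genes), against 0.11 for 1055 genes with 1. No test was made of these differences.

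Some 8mer genes ran the other way. Jag1, a Notch ligand, averaged 92.9 ± 43.3 CPM in KO tumors and 285 ± 196 CPM in WT tumors (log2 fold change -1.62, adjusted p = 0.139). Its WT tumors ran from 81.4 to 533 CPM and overlapped the KO tumors. The vascular genes Vegfc, a growth factor of lymphatic vessels, and Flt1, a VEGF receptor, gave -1.15 and -0.99 on that scale (adjusted p = 0.185 and 0.234). Serbp1, an RNA-binding protein of the ribosome, had -0.35 (adjusted p = 0.233). Vegfc and Serbp1 were named after their values were seen.

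Outside the 8mer genes, Lrrc49 and Tmem8b had the smallest p among the higher genes. Lrrc49, a leucine-rich repeat protein with no site, had 12.6, 15.8 and 19.5 CPM as lowest, median and highest KO tumor and 6.57, 8.49, 6.41 and 7.49 CPM in WT tumors (log2 fold change 1.15, adjusted p = 0.0685). Tmem8b, a membrane protein with a 6mer, had 5.13 to 11 CPM in KO tumors and 2.97 to 3.28 CPM in WT tumors (log2 fold change 1.35, adjusted p = 0.0758). Neither pair of groups overlapped.

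Large separations without overlap were also seen in genes of narrow expression. Ghrl, which encodes the hormone ghrelin, averaged 14.4 ± 9.94 CPM in KO tumors and 0.235 ± 0.146 in WT tumors (adjusted p = 0.0864). It overlaps Gm26982 on the opposite strand, with 60.5% as many counts. Serpinb9b, a serine protease inhibitor, averaged 12.9 ± 11 CPM in KO tumors and 1.27 ± 0.760 in WT tumors (log2 fold change 3.34, adjusted p = 0.115). Aldh1a1, which makes retinoic acid, had 18.9, 42.5 and 196 CPM as lowest, median and highest KO tumor and 10.7 to 16 CPM in WT tumors (log2 fold change 2.06, adjusted p = 0.152). Tet1, which oxidises methylated cytosine in DNA, averaged 3.31 ± 1.71 CPM in KO tumors and 0.787 ± 0.125 CPM in WT tumors (log2 fold change 2.06, adjusted p = 0.114). The KO tumors of these genes varied more than the WT tumors.

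Among lower genes, Nat8l and Pla2g6 had the smallest p. Nat8l, the enzyme that makes N-acetylaspartate, had 1.08, 2.74 and 3.61 CPM as lowest, median and highest KO tumor, against 48.0, 8.94, 14.2 and 10.6 CPM in WT tumors (log2 fold change -3.00, adjusted p = 0.0685). WT tumor 1 was far above the other WT tumors. Pla2g6, a calcium-independent phospholipase, had 20.4, 29.4 and 34.3 CPM in KO tumors and 56.5, 49.0, 64.1 and 48.5 CPM in WT tumors (log2 fold change -0.95, adjusted p = 0.0685). Baz1a, of a chromatin remodelling complex, averaged 92.2 ± 7.25 CPM in KO tumors and 150 ± 28.1 in WT tumors (log2 fold change -0.71, adjusted p = 0.0754). Larp1, which binds messages of ribosomal proteins, averaged 215 ± 18.8 CPM in KO tumors and 312 ± 18.2 in WT tumors (log2 fold change -0.54, adjusted p = 0.114). In all 4 genes every KO tumor lay below every WT tumor, and none carried a microRNA-21 site.

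Foxa1 and Pax9 were among the genes with every KO tumor below every WT tumor, and neither passed the adjusted threshold. Foxa1, a pioneer factor of endoderm, had 2.76, 13.2 and 23.5 CPM as lowest, median and highest KO tumor, against 58.9, 76.1, 37.1 and 57.2 CPM in WT tumors (log2 fold change -2.12, adjusted p = 0.115). Pax9, a factor of foregut epithelium, had 0.669 to 31.6 CPM in KO tumors and 38.2 to 118 CPM in WT tumors (log2 fold change -1.97, adjusted p = 0.207). Of 18 duct cell genes, 0 were higher and 4 lower at an unadjusted p under 0.05 (22.2%, against 8.39% of all genes), with a median log2 fold change of -0.24. The median was -0.13 without KO tumor 6 and -0.42 without WT tumor 1. All 4 were keratins, and the log2 fold change was -1.27 for Krt18 and -0.62 for Krt19 (adjusted p = 0.136 and 0.264). Without the acinar-rich tumors 2 were lower, and the median was -0.09. The duct list summed to 5228 to 11367 CPM in KO tumors, and to 8982 to 17949 CPM in WT tumors, which overlap.

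Of 19 basement membrane and adhesion genes, 1 was higher (5.26%, under the 8.34% of all genes) and 3 lower (15.8%, against 8.39%). Without KO tumor 6 or WT tumor 2, 5 were lower. The higher count was 0 without WT tumor 1 or WT tumor 3 and 2 without WT tumor 2. Lama3, a laminin chain of epithelial basement membranes, had 69.8 to 248 CPM in KO tumors and 152 to 1010 CPM in WT tumors (log2 fold change -1.76, adjusted p = 0.121). Lamb3, another laminin chain, had -1.29. The gel-forming mucin Muc5b had 0.673 to 7.17 CPM in KO tumors and reached 1616 CPM in WT tumor 4, against 2.92, 21 and 6.05 CPM in the other WT tumors. Its log2 fold change was -7.56, or -2.18 without that library.

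The circadian clock is a loop in which Clock or Npas2 with Arntl turn on Per and Cry genes, whose proteins shut the loop down, and in which Rora and the Rev-erb proteins act on Arntl. Of 19 clock and clock output genes, 9 were higher and 1 lower at an unadjusted p under 0.05, the median log2 fold change was 0.60, and none passed the adjusted threshold. Of all genes 8.34% were higher. In 5 of the 19 every KO tumor lay above every WT tumor, against 1.14% of all genes. The list was chosen with earlier results of these data known, so these shares are no independent test. The hour at which each tumor was taken did not enter the fit, and its part in these values was not tested. Leaving out each tumor in turn left 8 to 10 higher, leaving out the 3 acinar-rich tumors 7, and leaving out the 3 female-type tumors 9. With the acinar-rich tumors out, the median was 0.32.

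Npas2, the positive arm of the loop, had 2.56, 6.84 and 11.7 CPM as lowest, median and highest KO tumor and 0.768, 2.10, 2.23 and 1.51 CPM in WT tumors (log2 fold change 2.12, adjusted p = 0.116). Rora, the activator of Arntl, had 19.3 to 55.9 CPM in KO tumors and 11.7 to 17.8 CPM in WT tumors (log2 fold change 1.15, adjusted p = 0.135). Arntl, the partner of Npas2, averaged 17.7 ± 3.0 CPM in KO tumors and 22.2 ± 3.66 in WT tumors (log2 fold change -0.33, adjusted p = 0.336). Its direction was opposite to that of Npas2.

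Of the negative arm, Per3 had 27.1 to 59.2 CPM in KO tumors and 16.6 to 25.8 CPM in WT tumors (log2 fold change 0.86, adjusted p = 0.139). It shares its locus with Camta1, with 41.3% as many counts. Per2 and Cry2 had log2 fold changes of 0.98 and 0.97. The output factor Tef, which binds clock-controlled promoters and has a 7mer-m8 site, had 59.0, 83.9 and 151 CPM in KO tumors and 44.5, 50.8, 53.1 and 23.8 CPM in WT tumors (log2 fold change 1.01, adjusted p = 0.147). Dbp, of the same family, had 1.44, and the repressor Bhlhe41, with an 8mer, had -1.43 (adjusted p = 0.149 and 0.214). Without WT tumor 1 the value of Bhlhe41 was -0.33. Arntl, Per2, Cry2, Dbp and Bhlhe41 were named after their values were seen.

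**Figure D4:**
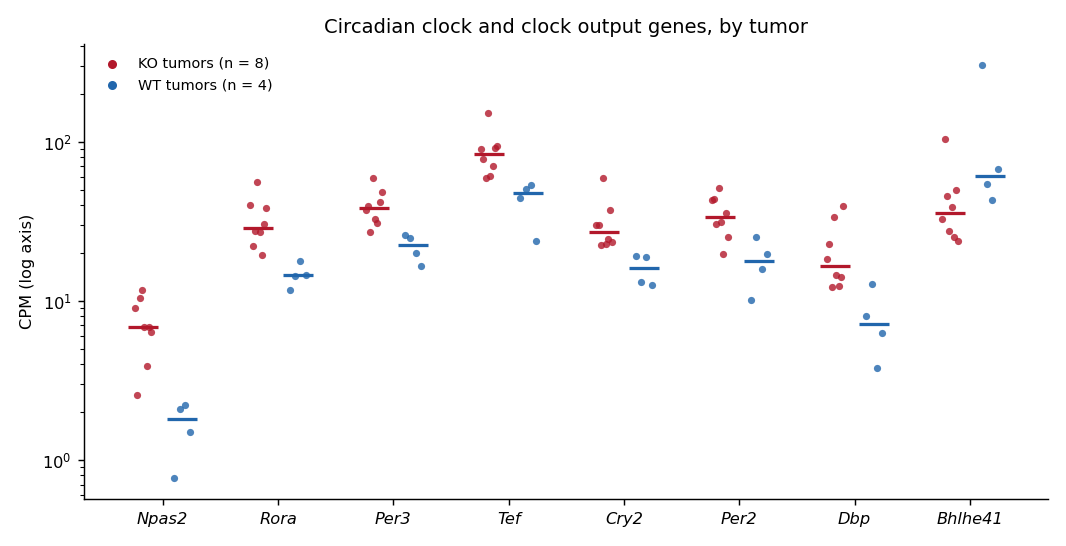
CPM (log axis) of 8 clock and clock output genes in each tumor, with KO tumors to the left and WT tumors to the right of each gene; bars are medians (n = 8 and 4). The groups are apart for Npas2, Rora, Per3, Tef and Cry2, and overlap for Per2, Dbp and Bhlhe41.

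Acat1 and other enzymes of ketone body and branched-chain amino acid breakdown were examined together. Of the 25, 8 were higher (32%, against 8.34% of all genes) and 0 lower. Acat1, which prompted the list, is among the 8. The median log2 fold change was 0.25, and Acat1 alone passed the adjusted threshold. Pccb, a subunit of propionyl-CoA carboxylase, averaged 45.7 ± 11.5 CPM in KO tumors and 28.2 ± 2.22 CPM in WT tumors (log2 fold change 0.70, adjusted p = 0.148). Bckdhb, of the branched-chain keto acid dehydrogenase, had 6.70 to 14.2 CPM in KO tumors and 4.07 to 6.43 CPM in WT tumors (log2 fold change 0.72, adjusted p = 0.202). Without WT tumor 1, 4 were higher, without WT tumor 4, 5, and without the acinar-rich tumors 4. Of 22 genes of mitochondrial fatty acid oxidation 4 were higher (18.2%), with a median of 0.12, or 0.30 without WT tumor 3 and 0.04 without the acinar-rich tumors. The 4 were 1 without WT tumor 1, 2 without KO tumor 1 or WT tumor 4, and 7 without WT tumor 3. The log2 fold change of Acadm, the medium-chain dehydrogenase, was 0.46 (adjusted p = 0.260). Of 20 genes of the tricarboxylic acid cycle, 0 were higher and 4 lower, with a median of -0.04. These 4 are 20%, against 8.39% of all genes and 15.3% of genes with no microRNA-21 site from 50 CPM. Without WT tumor 3, 2 were lower, and without the acinar-rich tumors 1. Under upper quartile scaling 1 was higher and 2 lower, and the median was 0.01.

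Of 15 TFIID subunits tested, Taf7 was the only one higher at an unadjusted p under 0.05, 2 were lower, and the median was -0.01. These are 6.67% and 13.3% of the list, near the 8.34% and 8.39% of all genes. Without WT tumor 4, 1 was lower, and without the acinar-rich tumors none. Taf2 averaged 57.2 ± 7.20 CPM in KO tumors and 76.4 ± 17.2 CPM in WT tumors (log2 fold change -0.42, or -0.26 without WT tumor 4, adjusted p = 0.199).

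Among 14 genes of the microRNA machinery 1 was higher (7.14%, near the 8.34% of all genes) and 2 lower (14.3%). Without WT tumor 3 or WT tumor 4, 1 was lower, and without the acinar-rich tumors none. Ago4, an Argonaute protein, had 5.00 to 12.9 CPM in KO tumors and 2.34 to 4.26 CPM in WT tumors (log2 fold change 1.16, adjusted p = 0.147). Drosha, which cuts the primary microRNA transcript, averaged 73.4 ± 15.9 CPM in KO tumors and 123 ± 52.4 CPM in WT tumors (log2 fold change -0.74, adjusted p = 0.176), and -0.44 without WT tumor 4.

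Genes of the normal pancreas had positive median log2 fold changes and wide spread. The summed level of 19 acinar genes was 34.0 to 3075 CPM in KO tumors and 19.8 to 705 CPM in WT tumors. The 16 of them tested had a median log2 fold change of 1.88. Of these 16, 2 were higher at an unadjusted p under 0.05 (12.5%, against 8.34% of all genes), and 13 were without WT tumor 4, in which alone among WT tumors they were high. The median was 4.84 without WT tumor 4 and 0.69 without KO tumor 4. Without the 3 acinar-rich tumors 10 of 15 tested were higher. Those 3 were picked by the level of this same list, so that count is no check of it. Nr5a2, a regulator of acinar genes, had 1.12, 5.86 and 18 CPM as lowest, median and highest KO tumor and 0.614, 2.45, 0.708 and 1.62 CPM in WT tumors (log2 fold change 2.35, adjusted p = 0.148).

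Of 13 islet genes, 8 were higher (61.5%, against 8.34% of all genes) and 0 lower, with a median log2 fold change of 3.66. The summed level of the 17 islet genes listed, tested or not, was 23.1 to 484 CPM in KO tumors and 3.89 to 74.3 CPM in WT tumors. Ppy, which encodes pancreatic polypeptide, had 0.271, 10.5 and 63.5 CPM as lowest, median and highest KO tumor and 0, 1.05, 0 and 0.193 CPM in WT tumors (log2 fold change 5.63, adjusted p = 0.148). The groups overlapped. The count of 8 was 5 without KO tumor 3 or KO tumor 8, 3 without WT tumor 1 or WT tumor 3, and 4 without WT tumor 4. It was 2 without the acinar-rich tumors and 5 without the female-type tumors, and without WT tumor 2 the median was 6.35.

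Stromal genes varied widely as well. Of 15 fibroblast genes, 6 were higher (40%, against 8.34% of all genes) and 1 lower (6.67%, against 8.39%), and the median log2 fold change was 1.16, or 0.64 without KO tumor 4 and 0.34 without the acinar-rich tumors. Pdgfra, a receptor of resident fibroblasts, averaged 80.0 ± 49.4 CPM in KO tumors and 27.4 ± 11 CPM in WT tumors (log2 fold change 1.55, adjusted p = 0.148). Thy1, a surface protein of fibroblasts, averaged 136 ± 47.8 CPM in KO tumors and 60.6 ± 13.7 CPM in WT tumors (log2 fold change 1.16, adjusted p = 0.139). The main fibrillar collagen gene Col1a1 had a log2 fold change of 0.01. Of 12 myofibroblast genes 0 were higher and 2 lower (16.7%), the 2 being Cthrc1 (-0.95) and Lrrc15 (-2.44), and without WT tumor 3 none were lower. Of 12 mesothelial genes 4 were higher (33.3%) and 1 lower, among them Wt1, the factor that marks mesothelium, with 1.78, and without the female-type tumors 8 were higher. The lower one was Krt19, also on the duct list. The summed level of the mesothelial list overlapped, at 1427 to 3588 CPM in KO tumors (median 2074) and 1682 to 3261 in WT tumors (median 2345).

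Hedgehog ligands of pancreatic cancer cells act on fibroblasts through membrane receptors and GLI factors. Of 15 genes of this pathway, 5 were higher (33.3%, against 8.34% of all genes) and 0 lower, with a median log2 fold change of 0.56. Leaving out WT tumor 1 or the acinar-rich tumors left 3, as did limma-voom. Gli2, a transcription factor of the pathway, averaged 7.40 ± 2.47 CPM in KO tumors and 2.61 ± 0.930 CPM in WT tumors (log2 fold change 1.5, adjusted p = 0.136). Boc, a coreceptor, had 1.54. KO tumor 4 had the highest summed Hedgehog level (520 CPM) and the highest fibroblast level but one, and the part of the fibroblasts in these values was not tested.

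A mixed list of muscle, developmental and imprinted genes split. Of 16, 6 were higher (37.5%, against 8.34% of all genes) and 3 lower (18.8%, against 8.39%). This list, too, was chosen with earlier results of these data known, so its shares are no independent test. Zim1, an imprinted zinc finger gene, had 1.12, 12.9 and 26.4 CPM as lowest, median and highest KO tumor and 0.461, 0.838, 0.850 and 0.232 CPM in WT tumors (log2 fold change 4.32, adjusted p = 0.116). Grb10, an adaptor that restrains insulin and IGF receptors, averaged 78.0 ± 26.1 CPM in KO tumors and 30.7 ± 9.71 CPM in WT tumors (log2 fold change 1.35, adjusted p = 0.128). Dlk1, a Notch-like protein, had 0.425 to 2.82 CPM in KO tumors and 26.3, 2.34, 17.3 and 146 CPM in WT tumors (log2 fold change -5.02, adjusted p = 0.0754). Without KO tumor 2, 10 were higher. In the fits without WT tumor 4, without the acinar-rich tumors or without the female-type tumors, 1 was lower.

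The next 5 lists, on growth and stress, had negative medians, and no member passed the adjusted threshold. Their shares of lower genes are read against 8.39% of all genes, whatever their level. Among genes with no microRNA-21 site and a mean of at least 50 CPM, 15.3% were lower. No share was computed for genes matched to these lists in level. Of 24 proliferation genes, 0 were higher and 10 lower (41.7%), the median log2 fold change was -0.57, and all 24 values were negative. Aurkb, a mitotic kinase, had 7.42 to 18.9 CPM in KO tumors and 17.4 to 41.6 CPM in WT tumors (log2 fold change -1.06, adjusted p = 0.145). The count of 10 was 3 without WT tumor 3 or WT tumor 4, 5 without KO tumor 7, and 6 when any 1 of KO tumors 1 and 2 and WT tumor 2 was left out. It was 3 without the acinar-rich tumors. Under upper quartile scaling it was 5, and without the female-type tumors 13.

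Of 19 genes of the unfolded protein response, 0 were higher and 9 lower (47.4%, against 8.39% of all genes), with a median log2 fold change of -0.39. Atf4, the factor that drives the amino acid and stress response, averaged 191 ± 26.4 CPM in KO tumors and 274 ± 30.1 in WT tumors (log2 fold change -0.52, adjusted p = 0.139). Creld2, a chaperone of the endoplasmic reticulum, averaged 37.6 ± 9.89 CPM in KO tumors and 65.7 ± 16.9 in WT tumors (log2 fold change -0.80, adjusted p = 0.147). Without the acinar-rich tumors 4 were lower.

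Of 14 heat shock genes, 0 were higher and 6 lower (42.9%, against 8.39% of all genes), with a median of -0.34. Hsph1, a co-chaperone of HSP70, had 28.9, 86.2 and 113 CPM as lowest, median and highest KO tumor and 117, 212, 118 and 255 CPM in WT tumors, without overlap (log2 fold change -1.13, adjusted p = 0.151). Leaving out WT tumor 4 left 2 lower, and leaving out the acinar-rich tumors left 1.

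Of 19 actin and myosin genes, 0 were higher and 7 lower (36.8%, against 8.39% of all genes), with a median of -0.29. Myh9, the heavy chain of non-muscle myosin, averaged 1257 ± 254 CPM in KO tumors and 1880 ± 324 in WT tumors (log2 fold change -0.58, adjusted p = 0.171). Without KO tumor 1, 4 were lower, and under upper quartile scaling 4. Without the acinar-rich tumors the median was -0.13.

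Of 18 glycolysis genes, 1 was higher (5.56%, under the 8.34% of all genes) and 5 lower (27.8%, against 8.39%), with a median of -0.51. Without WT tumor 3, 3 were lower, with 1 surrogate variable in the fit 11, and by limma-voom without the female-type tumors 8. Without WT tumor 1 none was higher, and the median was -0.32. Hk2, the inducible hexokinase, had 63.2, 126 and 194 CPM as lowest, median and highest KO tumor and 272, 203, 236 and 330 CPM in WT tumors, without overlap (log2 fold change -1.08, adjusted p = 0.148). Aldoa and Gapdh, which have many processed pseudogenes, had -0.73 and -0.84 and are less certain.

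**Figure D5:**
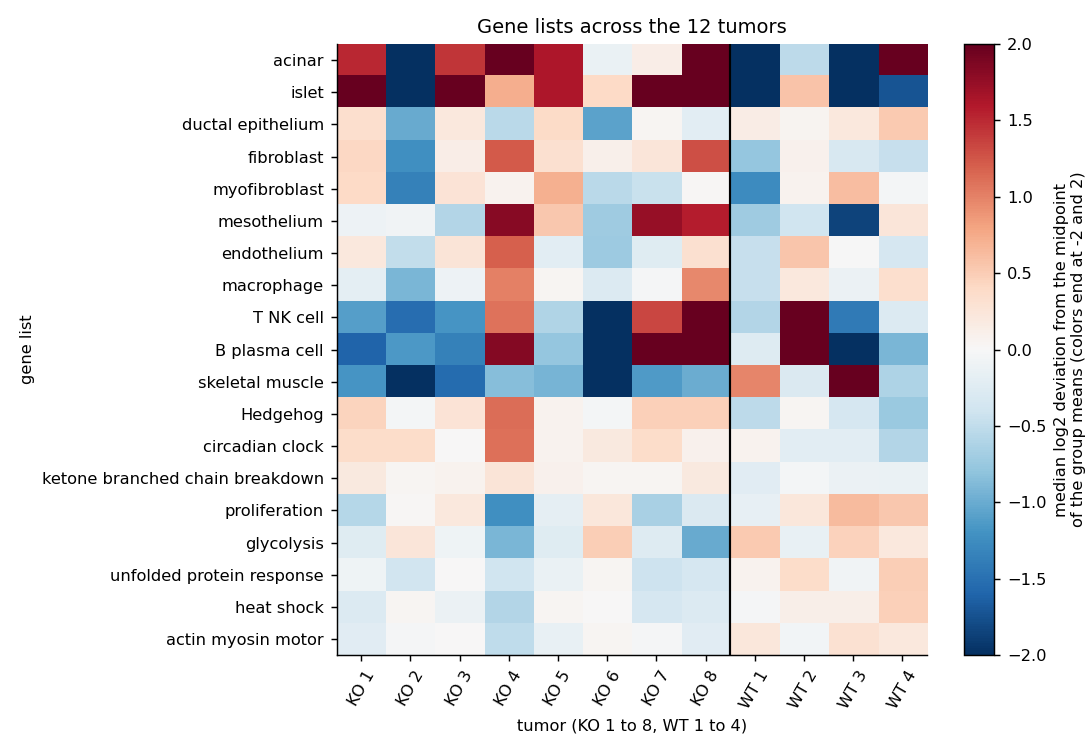
Median log2 deviation of each gene list from the midpoint of the 2 group means, for each tumor, KO tumors to the left of the line and WT tumors to the right; red is higher and blue lower, and colors end at -2 and 2. Acinar, islet and lymphocyte lists vary widely between tumors of the same genotype, and WT tumor 3 stands out in skeletal muscle genes.

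Lymphocyte genes spread widely within each genotype. The summed level of T and NK cell genes was 4.64 to 339 CPM in KO tumors and 14.7 to 134 CPM in WT tumors. Of 17 tested, 0 were higher and 1 lower (5.88%, against 8.39% of all genes), and without KO tumor 8, 3 were lower. Their median log2 fold change was 0.48, or -1.25 without KO tumor 8 and -1.81 without the acinar-rich tumors. None of 16 macrophage genes, 9 dendritic cell genes or 14 B and plasma cell genes was higher or lower at an unadjusted p under 0.05. For B and plasma cell genes this changed in both directions. Without WT tumor 2, 3 were higher, while 4 were lower without the acinar-rich tumors and 2 with 1 surrogate variable. For dendritic cell genes, 1 was higher without WT tumor 2, with 1 surrogate variable, or by limma-voom without the female-type tumors, and 1 lower without KO tumor 8 or without the acinar-rich tumors.

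Klrc1, the inhibitory receptor NKG2A of NK and T cells, had 1.06 to 5.57 CPM in KO tumors and 47.6, 3.35, 22.8 and 17.4 CPM in WT tumors (log2 fold change -3.08, adjusted p = 0.0864). The groups overlapped through WT tumor 2. Its neighbour and close paralog Klrc2 had -2.51, and reads may be split between them. The level of Klrc1 did not follow the summed level of T and NK cell genes. WT tumor 2 had the highest sum of the WT tumors (134 CPM) and the lowest Klrc1. WT tumor 3 had the lowest sum of the WT tumors (14.7 CPM) and 22.8 CPM of Klrc1. KO tumor 8, with a sum of 339 CPM, had at most 5.57 CPM of Klrc1. Which cells the Klrc1 RNA came from was not tested.

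Skeletal muscle genes were the list with the median log2 fold change furthest from 0, at -5.61, and 10 of 11 were lower (90.9%, against 8.39% of all genes). Without WT tumor 3 the median was -1.06 and 4 were lower. limma-voom gave 7 lower, and 3 without the female-type tumors. DESeq2 gave a p-value for only 1 of the 11, which was not lower at 0.05. Atp2a1, the calcium pump of fast muscle, had 0.271 to 0.718 CPM in KO tumors and 8.83, 1.75, 433 and 1.58 CPM in WT tumors (log2 fold change -8.02, adjusted p = 0.0685), and the log2 fold change was -3.25 without WT tumor 3. It overlaps Rabep2, with 90.5% as many counts.

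Whether the effect of genotype differed between tumors and the cancer cell lines was tested for 18662 genes over all 22 libraries, and none passed at an adjusted p under 0.05 (edgeR, 0.0%). At an unadjusted p under 0.05 there were 1540 (8.25%), and limma-voom with the animal as a replicate block called 0. The titles of 5 animals appear in both materials, so lines and tumors are not independent. Acat1 had 110.1 to 151 CPM in KO lines and 74.7 to 114 in WT lines. Its log2 fold change was 1.40 in tumors and 0.56 in lines (interaction 0.86, adjusted p = 0.299). Taf7 had 8.51 to 14.6 CPM in KO lines and 4.42 to 8.54 in WT lines (interaction 0.34, adjusted p = 0.757). Cdip1 had 74.8 to 85.2 CPM in KO lines and 25.3 to 41.2 in WT lines (interaction -0.42, adjusted p = 0.473). Reck was at most 0.849 CPM in KO lines and 0.602 in WT lines, while its KO tumors reached 31.0 CPM.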

How the data were processed

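The deposited values are raw read counts per gene in one table for tumors and one for lines. Per the labels, polyadenylated RNA was read in single-end reads of 75 bases (bcl2fastq 1.9.0, Trim Galore, STAR, mm10, per the submitters' processing notes), and the counting tool, annotation and strand setting are not given in the sources used here. Reads shared by overlapping or near-identical genes are therefore uncertain. Of 53342 genes, 105 (0.00944% of counts) had no symbol in GENCODE vM21. Genes of the mitochondrial genome were not analysed here.

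Counts were tested with edgeR 4.0.16 (filterByExpr, TMM, robust quasi-likelihood, Benjamini-Hochberg adjustment over 18125 genes, threshold 0.05, common BCV 0.50), without covariates. Tested on simulated data, the tumor fit found 0% of genes set 0.5 log2 apart, 15.4% of those set 1 apart and 68.9% of those set 2 apart, and 0 of its 52 calls were false. Nothing says that replicates share no litter, so p-values measure the spread between these tumors. Counting intervals and limits cover counting error only. Alternatives used limma 3.58.1, DESeq2 1.42.0 and sva 3.50.0.

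Members and lists were chosen with earlier results of these data known. Named genes are those called, the 12 of smallest p in each direction (mean of at least 1 CPM), the 10 of largest change in each direction without overlap (mean of at least 5 CPM), the 12 8mer genes of smallest p, published targets, Mir21a and Vmp1, and up to 4 per list by p with up to 3 more by level for cell types. Some of them are not reported here.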

Additional observations from a re-analysis of the deposited data

Results flagged for a closer look

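Among 220 groups of 4 or 8 tumors examined on a log2 scale with 0.5 CPM added, 11 had a single tumor far from the rest of its genotype by Dixon's ratio. About 1 in 20 such groups is found by chance. Spry2 was at 121 CPM in KO tumor 6, against 46.0 to 56.0 in the other KO tumors, and at 113 CPM in WT tumor 1, against 45.4 to 52.5 in the other WT tumors. KO tumor 2 was low for the fibroblast list (2510 CPM summed, others 6230 to 13700), for Pi16 (4.34 CPM, others 31.6 to 155) and for Sfrp1 (30.3 CPM, others 170.0 to 434). WT tumor 3 was high for the skeletal muscle list (2520 CPM summed, others 54.3 to 92.1) and for Notum (1.77 CPM, others 0.245 to 0.384). WT tumor 2 was high for Serpinb9b (2.41 CPM, others 0.810 to 0.956) and low for Aldoa (768 CPM, others 1190 to 1280). Tet1 was at 7.26 CPM in KO tumor 8 (others 2.02 to 3.77) and Pcsk1 at 13 CPM in KO tumor 6 (others 0.0387 to 1.95).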

How the results depend on the processing

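DESeq2 called 550 genes higher and 333 lower, against 2 and 0 by edgeR. limma-voom called 4 higher and 0 lower, the same with quality weights 5 and 0, and a fit with 1 surrogate variable 4 and 1. RLE factors gave 2 and 0, upper quartile factors 3 and 0, a mean of at least 1 CPM 3 and 0, and no low-count filter 2 and 1. Without the 3 acinar-rich tumors, picked by their acinar level in these data, edgeR called 0 in either direction (1825 at an unadjusted p under 0.05). Without the 3 female-type KO tumors, an alternative chosen after seeing the data, edgeR and limma-voom called 0 (2799 and 2475 at an unadjusted p under 0.05). Leaving out each tumor in turn gave 2 to 70 higher and 0 to 38 lower. The highest were 70 higher and 12 lower without KO tumor 2, and 19 higher and 38 lower without WT tumor 2. Without KO tumor 8 they were 4 and 0, and without WT tumor 4, 2 and 4. Acat1 and Taf7 passed in all 12 of these fits.

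The 8mer minus no-site median was 0.306 without the female-type tumors by edgeR, and 0.230 to 0.342 with each tumor left out. The log2 fold change of Spry2 ran from -0.32 without KO tumor 6 to 0.32 without WT tumor 1. The cause of these differences was not tested, except that fewer tumors enter some fits.

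No paired analysis was possible because the labels give KO and WT tumors no shared numbers. For the difference between tumors and lines, the animal as a replicate block gave 0 calls, as did the fit without it and with RLE factors. In simulated data of the same depth and the same spread gene by gene, a change of 1 on the log2 scale was seldom found. How much of that depth and spread each account for was not tested.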
